A study of Mus musculus with 22 samples.

Results

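Rod bipolar cells were set against rods, the photoreceptors that drive them, in cells sorted from the mouse retina at postnatal day 13 (P13), so that the libraries stand on either side of the first synapse of the rod pathway. The rod bipolars had 2 libraries and the rods had 2, which is 4 of the 22 libraries of the study and 2 of its 11 groups. The study sampled 3 cell classes at P7, P13 and P30, namely rods, cones and bipolars, and added rod bipolars and cone bipolars at P13 alone, with 2 libraries per group. The labels call the mixed class bipolars, and the series design calls them ON-bipolar cells. For every group the labels give an age, the retina as tissue and a cell type. The labels used here do not state strain, genotype, sex, the sorting marker or how many animals gave a library. The libraries of a group may thus be technical replicates. The p-values measure no more than the spread between libraries of a group, pooled over all 11 groups. Of 13785 named genes in the table, 13405 were expressed highly enough in some group to be tested.

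A rod releases glutamate from a ribbon synapse in darkness, and the dendrite of the rod bipolar enters the rod terminal to sense it with the receptor mGluR6. Glutamate at mGluR6 acts through the G protein Go to close the channel TRPM1, so that the cell depolarises when light lowers glutamate. The rod bipolar axon in turn forms ribbon synapses onto AII amacrine cells in the inner retina and receives GABA there from amacrine cells. A rod and a rod bipolar are thus both ribbon-bearing glutamatergic neurons, one presynaptic and one postsynaptic at their shared contact.

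The markers of both cell types stood on the side that the labels give. Grm6, the mGluR6 gene, had 3532 and 3209 CPM in rod bipolars and no reads in either library of rods, where CPM is the count of reads of a gene per Mread (1e+06 reads) of library size as the authors scaled it. Prkca, the protein kinase C alpha that marks rod bipolars, had 5044 and 6298 CPM in rod bipolars against 273 and 302 CPM in rods. Nrl, the transcription factor that sets rod fate, had 23.1 and 12.4 CPM in rod bipolars against 672 and 706 CPM in rods. All 3 separated the groups without overlap. With 2 libraries per group, groups can also lack overlap without a true difference, and the share of all genes without overlap was not counted. A lack of overlap named below therefore describes these libraries only.

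Depth was 27.4 and 17.9 Mreads in rod bipolars and 31.4 and 48.5 Mreads in rods. The rod libraries nevertheless had more genes with no reads, 1956 and 2463 against 764 and 751 in rod bipolars. Mitochondrial transcripts took 2.18% and 2.38% of reads in rod bipolars and 7.02% and 6.82% in rods. Rods at P13 had the widest replicate spread of the 11 groups, a median SD of 0.49 on the log2 scale, against 0.30 in rod bipolars. The p-values rest on a spread pooled over all groups, whose median SDs went down to 0.13 in bipolars at P7. The 19 genes of a rod phototransduction list summed to 1500 and 847 CPM in rod bipolars against 60918 and 79761 CPM in rods. In the rod bipolar libraries the median gene of that list stood at 2.15% and 1.40% of its mean level in rods, and Gucy2f, a photoreceptor guanylate cyclase, had no reads. The 11 amacrine markers tested summed to 499 and 809 CPM in rod bipolars against 31.4 and 38.8 CPM in rods. In cone bipolars at P13 they summed to 219 and 386 CPM. Of these, 2 were higher in rod bipolars (18.2%, against 22.5% of all genes tested), namely Gad2 and Pax6. None was lower, though 1 was at an unadjusted p under 0.05. Gad2 was 7.44 ± 1.29 higher on the log2 scale (SE, limma, adjusted p = 2.7e-04). In rod bipolars Gad2 and Pax6 averaged 3.39 and 5.51 on the log2 scale. The other members of the amacrine sum were not called, among them Gad1, which had no reads in 1 rod bipolar library. The count of 2 became 1 with array quality weights and 5 on the log2(CPM + 1) scale. Of the 10 vascular markers, 5 were higher in rod bipolars, where they summed to 71.8 and 72.0 CPM, and 7 had no reads in either rod library, where the list summed to 25.1 and 36.9 CPM. Of the 13 stress and immediate early genes, 9 were lower in rod bipolars (69.2%, against 15.6% of all genes tested). The list summed to 79.7 and 142 CPM in rod bipolars against 673 and 773 CPM in rods. Fosb and Atf3 had no reads in 1 rod bipolar library. Atf3 also had none in 1 rod library and was not called. The 9 became 4 with array quality weights and 2 in a fit on the 4 libraries alone, and the 5 vascular calls became 2 with the weights. The part of these other RNAs in the results below was not tested. In sorted bulk RNA, fewer cells of a type and less RNA per cell cannot be told apart.

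A gene was called changed at an adjusted p under 0.05 with a log2 difference of at least 1 in size. By that rule 5106 of the 13405 genes differed between rod bipolars and rods, 38.1% of those tested. Of these, 3010 were higher in rod bipolars, 22.5% of all genes tested, and 2096 were lower, 15.6%. The median gene was 0.21 higher in rod bipolars on the log2 scale, and differences below are to be read against that shift. With plain read totals the median was 0.59, with 3714 genes higher and 1526 lower, and without mitochondrial transcripts it was 0.52, with 3540 higher and 1604 lower. A fit on the 4 libraries alone called 1468 genes higher and 936 lower, and array quality weights called 1894 higher and 1362 lower.

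**Figure D1:**
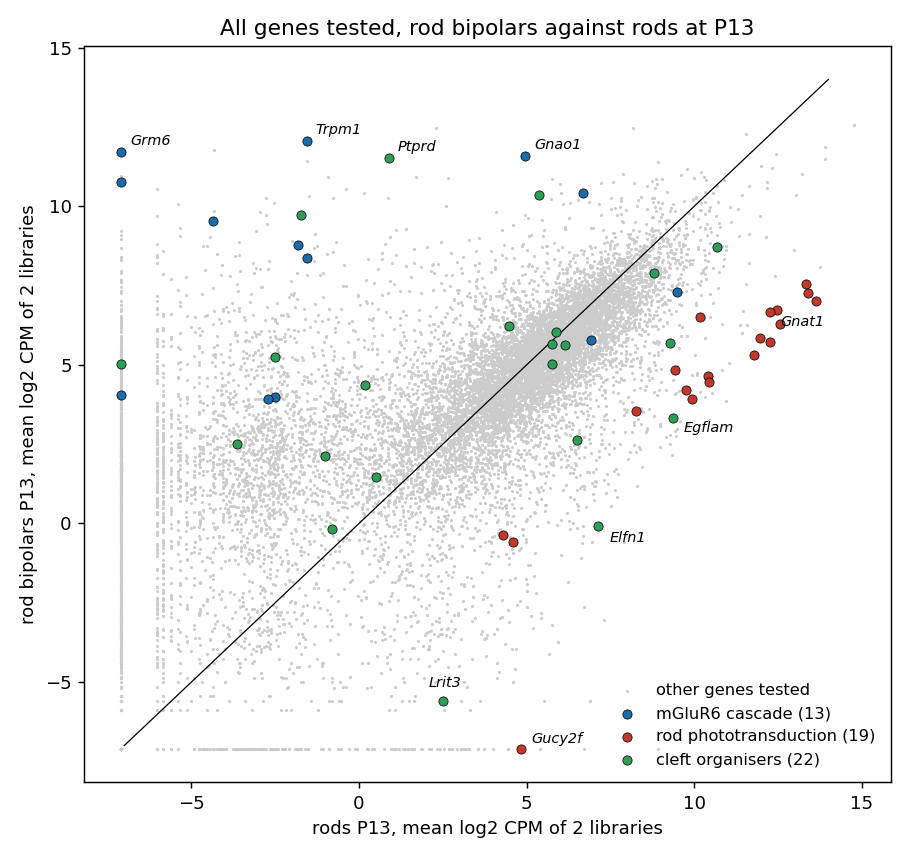
Mean log2 CPM of 2 libraries in rod bipolars (vertical) against rods (horizontal) for the 13405 genes tested, with 3 gene lists in colour; the line marks equal levels, and points in the lowest row or leftmost column had no reads in that group. The phototransduction genes lie below the line, most of the mGluR6 cascade lies far above it, and the cleft organisers lie on both sides.

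Among genes of at least 3 on the log2 scale in the higher group, the 10 with the largest rises were led by Grm6, which was at least 76632-fold higher in rod bipolars (adjusted p = 3.4e-10), the limit that no reads in rods allows. The others were Cacna2d3, Gpr179, Rnf152, Vstm2b, Qpct, Hecw1, Isl1, Ankrd6 and Nyap2. Hecw1, a HECT-type ubiquitin ligase, had 427 and 597 CPM in rod bipolars and no reads in rods, at least 11638-fold higher (adjusted p = 6.2e-08). Rnf152, a lysosomal ubiquitin ligase, had 1435 and 1549 CPM in rod bipolars and 0 and 0.0252 CPM in rods. Ankrd6, a scaffold of the planar polarity pathway also called diversin, had 421 and 406 CPM in rod bipolars and no reads in rods.

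The 10 largest falls were Prm1, Meig1, Gm44532, Ccn4, Gucy2f, Ccdc180, 6430562O15Rik, Sntg2, Tph1 and Chst3. Prm1, which encodes the protamine that packs sperm chromatin, had no reads in rod bipolars and 387 and 618 CPM in rods, at least 8493-fold lower in rod bipolars (adjusted p = 9.1e-08). Meig1, known for its role in spermatid development, had no reads in rod bipolars and 77.0 and 144 CPM in rods, at least 1866-fold lower (adjusted p = 3.1e-06). Tph1, the tryptophan hydroxylase of melatonin synthesis, had no reads in rod bipolars and 9.66 and 25.9 CPM in rods, at least 301-fold lower (adjusted p = 2.8e-05). The calls of Gm44532 and 6430562O15Rik, which also had no reads in rod bipolars, were lost with array quality weights.

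At the dendrite of the rod bipolar, 10 of the 13 listed genes of the mGluR6 cascade were higher in rod bipolars (76.9%) and 2 were lower (15.4%). The shares of all genes tested were 22.5% and 15.6%, so the lower share stands near that of all genes. The median log2 difference of the cascade was 9.93, or 8.56 with genes without reads in rods set at their bound. On the log2(CPM + 1) scale the median was 6.57. Gpr179, the orphan receptor that holds the regulators of G protein signalling at the dendritic tip, had 1766 and 1680 CPM in rod bipolars and no reads in rods, at least 39178-fold higher (adjusted p = 1.1e-05). Trpm1, the channel that the cascade closes, had 3908 and 4566 CPM in rod bipolars against 3.51 and 0.0252 CPM in rods. It was 13.61 ± 2.61 higher on the log2 scale (SE, adjusted p = 6.2e-04). Neither gene overlapped between the groups.

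The G protein that mGluR6 drives differed from that of the rod in all its parts. Gnao1, the alpha subunit of Go, had 3258 and 2873 CPM in rod bipolars against 38.0 and 25.5 CPM in rods (6.62 ± 0.27, adjusted p = 2.2e-10). Its rod counterpart Gnat1, the transducin alpha subunit, had 128 and 81.7 CPM in rod bipolars against 4581 and 5181 CPM in rods (-5.58 ± 0.32, adjusted p = 3.8e-09). The beta subunits divided in the same way, with Gnb3 at 1532 and 1229 CPM in rod bipolars against 85.0 and 122 CPM in rods, and Gnb1 at 121 and 94.5 CPM in rod bipolars against 5567 and 5720 CPM in rods. Among gamma subunits, Gng13 had 16.8 and 16.4 CPM in rod bipolars and no reads in rods, while Gngt1 averaged 159 ± 49.7 CPM in rod bipolars and 10899 ± 3170.0 CPM in rods (SD, n = 2 each). All 6 subunit genes were called, in a comparison that called 38.1% of all genes tested.

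The regulators that end the G protein signal also differed. Rgs7 had 792 and 687 CPM in rod bipolars against 0.316 and 0 CPM in rods (13.89 ± 1.21, adjusted p = 2.5e-07). Rgs11 had 465 and 416 CPM in rod bipolars against 0.141 and 0.528 CPM in rods (10.61 ± 1.47, adjusted p = 3.4e-05). Their relative of the outer segment, Rgs9, had 1.07 and 0.404 CPM in rod bipolars against 29.5 and 19.8 CPM in rods (-5.19 ± 0.91, adjusted p = 2.9e-04). Rgs9bp, the membrane anchor of Rgs9, was lower in rod bipolars, at 139 and 176 CPM against 804 and 651 CPM in rods (-2.21 ± 0.27, adjusted p = 1.1e-05).

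Gnb5, the beta subunit that these regulators share, had 53.7 and 56.5 CPM in rod bipolars against 130.3 and 114 CPM in rods (-1.14 ± 0.39, adjusted p = 0.026). That call was lost without either library of either group, with plain totals, without mitochondrial transcripts and with array quality weights. Rgs7bp, which anchors the R7 class of regulators, did not pass (adjusted p = 0.054), with 9.03 and 25.1 CPM in rod bipolars against 3.16 and 0 CPM in rods, though it did with the replicate number as a block, on the log2(CPM + 1) scale, with voom, with plain totals, without mitochondrial transcripts and without rod library 1. Nyx, which encodes nyctalopin, a surface protein that positions TRPM1, had 10.2 and 24.6 CPM in rod bipolars against 0 and 4.33 CPM in rods (6.48 ± 2.38, adjusted p = 0.037). The call of Nyx was lost without rod bipolar library 1, without rod bipolar library 2, without rod library 1, in the fit on the 4 libraries alone and with array quality weights.

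**Figure D2:**
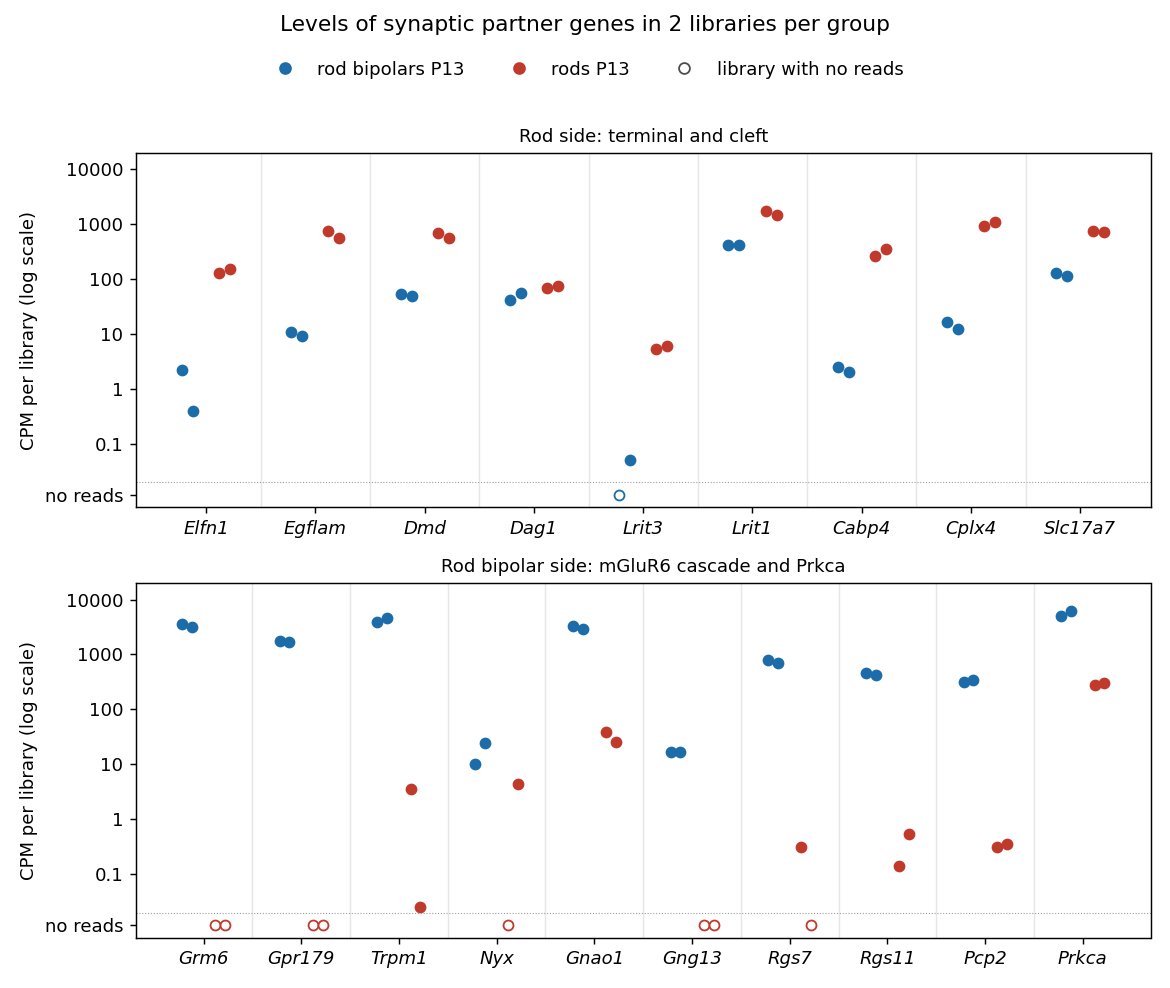
CPM per library on a log scale for 9 genes of the rod terminal and cleft (top) and 10 genes of the rod bipolar dendrite (bottom), with rod bipolars on the left and rods on the right of each gene; open points mark libraries with no reads. Dag1 stands at like levels in both groups, and Grm6, Gpr179 and Gng13 had no reads in rods.

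Promoter sequences are shown for 4 genes whose levels mark one side of this synapse, because photoreceptors and bipolars share the homeodomain factor Otx2, which with its relative Crx is known to bind the core TAATCC. Each line gives 300 bases, from 250 before to 50 after the start of the gene in RefSeq on GRCm38.p6, read 5′ to 3′ on the gene's strand, with matches to TAATCC or its reverse complement GGATTA in capitals. Cabp5 (chr7:13397905-13398204) and Trpm1 (chr7:64153585-64153884) are genes of rod bipolars, as is Grm6 (chr11:50850435-50850734), and Gngt1 (chr6:3993758-3994057) is a rod gene; all lie on the plus strand.
Cabp5: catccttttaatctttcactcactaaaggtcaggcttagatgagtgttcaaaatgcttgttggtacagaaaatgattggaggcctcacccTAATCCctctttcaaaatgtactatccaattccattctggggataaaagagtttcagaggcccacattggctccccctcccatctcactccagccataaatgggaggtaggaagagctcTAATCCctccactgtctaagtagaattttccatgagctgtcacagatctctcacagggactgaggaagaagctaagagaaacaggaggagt
Trpm1: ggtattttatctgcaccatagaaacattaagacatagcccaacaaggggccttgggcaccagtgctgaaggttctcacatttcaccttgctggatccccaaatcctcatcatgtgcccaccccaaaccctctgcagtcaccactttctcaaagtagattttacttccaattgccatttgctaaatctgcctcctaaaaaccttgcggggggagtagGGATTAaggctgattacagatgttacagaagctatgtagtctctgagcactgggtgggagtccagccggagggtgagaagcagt
Grm6: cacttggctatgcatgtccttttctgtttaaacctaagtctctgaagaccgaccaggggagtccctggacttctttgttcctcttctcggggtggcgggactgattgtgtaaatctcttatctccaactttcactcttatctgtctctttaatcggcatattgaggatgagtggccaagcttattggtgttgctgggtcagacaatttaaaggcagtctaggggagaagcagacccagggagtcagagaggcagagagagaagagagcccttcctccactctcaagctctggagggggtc
Gngt1: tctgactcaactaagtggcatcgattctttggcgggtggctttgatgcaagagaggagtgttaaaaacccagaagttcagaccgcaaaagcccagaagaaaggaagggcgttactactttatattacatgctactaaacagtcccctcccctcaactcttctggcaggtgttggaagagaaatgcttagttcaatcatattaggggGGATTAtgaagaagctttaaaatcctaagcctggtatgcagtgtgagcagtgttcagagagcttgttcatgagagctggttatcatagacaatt
Cabp5 held 2 matches, 160 and 41 bases before the start, Trpm1 held 1 at 34 bases and Gngt1 held 1 at 44 bases before it. Grm6 held none in this window.

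Of all 32851 promoters of this length, 2320 held the core on either strand, 7.06%. Of the 13 phototransduction genes with a promoter in the table, 7 held it, among them Gucy2f and Gngt1, which is 53.8%. In the mGluR6 cascade 2 of 10 promoters held it, Trpm1 and Gnb5. Of 6 promoters of the rod bipolar markers none held it. These are letter matches, and no binding was measured.

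Otx2 itself had 1339 and 1397 CPM in rod bipolars against 1450 and 1556 CPM in rods (-0.14 ± 0.15, adjusted p = 0.48), and its sign turned with plain read totals and without mitochondrial transcripts. Crx had 403 and 461 CPM in rod bipolars against 1883 and 2061 CPM in rods (-2.19 ± 0.14, adjusted p = 7.7e-09). Crx was thus lower in rod bipolars with no overlap, and Otx2 did not pass the test. Of 14 photoreceptor transcription factors, 12 were lower in rod bipolars (85.7%, against 15.6% of all genes tested). None was higher, and the median log2 difference was -4.04. At an unadjusted p under 0.05, and with voom on recovered reads, the count higher was also 0. Nr2e3, which acts with Nrl to repress cone genes, had 45.4 and 24.6 CPM in rod bipolars against 1925 and 2276 CPM in rods, and Neurod1 had 557 and 501 CPM in rod bipolars against 4446 and 4633 CPM in rods.

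Of 16 bipolar transcription factors, 11 were higher in rod bipolars (68.8%, against 22.5% of all genes tested), with a median of 5.27. None was lower by limma, at an unadjusted p under 0.05 or with voom (0 each). Prdm8, needed for rod bipolar survival in mice, had 1268 and 1417 CPM in rod bipolars against 62.3 and 30.8 CPM in rods (4.94 ± 0.29, adjusted p = 4.2e-09). Isl1, a LIM homeodomain factor of ON bipolars, had 3960 and 3037 CPM in rod bipolars against 0.0703 and 0.0252 CPM in rods, which was 2 reads and 1 read. The ratio of pooled reads was 81839 (95% exact interval 28003 to 396849).

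At the rod side of the cleft, Elfn1 and Egflam, known to act across the synapse on mGluR6 and Gpr179, were lower in rod bipolars. Elfn1, the adhesion protein of the rod terminal that binds mGluR6, had 2.20 and 0.404 CPM in rod bipolars against 128 and 155 CPM in rods (-7.21 ± 0.67, adjusted p = 5.1e-07). Egflam, which encodes pikachurin, the matrix protein that links dystroglycan to the dendritic tip, averaged 10.1 ± 1.22 CPM in rod bipolars and 666 ± 130.4 CPM in rods (SD, n = 2 each, log2 difference -6.03 ± 0.39, adjusted p = 9.5e-09). Their mean levels in rod bipolars were 0.918% and 1.52% of those in rods, beside 2.15% and 1.40% for the median phototransduction gene above, and neither overlapped between the groups.

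Dmd, whose product dystrophin anchors dystroglycan in the terminal, had 54.0 and 48.9 CPM in rod bipolars against 687 and 551 CPM in rods (-3.58 ± 0.18, adjusted p = 1.1e-09). Dag1, the dystroglycan gene, had 42.0 and 57.3 CPM in rod bipolars against 67.8 and 74.6 CPM in rods and did not pass (-0.54 ± 0.36, adjusted p = 0.24). Dmd was thus lower in rod bipolars with no overlap, and the matrix partner Egflam likewise.

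The leucine-rich repeat proteins Lrit1 and Lrit3 of the photoreceptor synapse were lower as well. Lrit1, which regulates mGluR6 signalling, had 423 and 416 CPM in rod bipolars against 1769 and 1491 CPM in rods (-1.95 ± 0.22, adjusted p = 3.7e-06). Lrit3, which nyctalopin and TRPM1 need to reach the tip, had 0 and 0.0504 CPM in rod bipolars, a single read, against 5.41 and 5.96 CPM in rods (adjusted p = 8.5e-04). The pooled reads were 291-fold lower in rod bipolars (95% exact interval 51.9 to 11512).

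Over the list of 22 cleft organisers as a whole, 9 were higher in rod bipolars (40.9%, against 22.5% of all genes tested). Lower were 6 (27.3%, against 15.6%), with a list median of 0.39. The median was -0.10 without rod library 2 and 0.17 without rod bipolar library 2. The count of 9 became 5 without rod bipolar library 1, 5 without rod bipolar library 2 and 4 in the fit on the 4 libraries alone. The higher members were neurexins, receptor phosphatases and others that organise synapses outside the rod terminal too. Ptprd, a receptor tyrosine phosphatase of presynaptic membranes, had 2868 and 3026 CPM in rod bipolars against 9.45 and 0.352 CPM in rods (10.64 ± 1.19, adjusted p = 3.9e-06). Nrxn3, a neurexin, had 1073 and 1597 CPM in rod bipolars against 56.6 and 30.4 CPM in rods (4.98 ± 0.53, adjusted p = 2.3e-06).

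The 30 listed pairs set a gene of the rod side against its known or candidate partner on the rod bipolar side, and in 29 both were tested. In 8 of these the rod gene was lower and the bipolar gene higher in rod bipolars, among them Elfn1 with Grm6, Egflam with Gpr179 and Lrit3 with Trpm1. Some genes stand in several pairs, so the pairs are not independent, and they were chosen with earlier results of these data known. The count of 8 became 5 without rod bipolar library 1 and 5 in the fit on the 4 libraries alone. In 7 pairs both genes were higher in rod bipolars, most of them neurexins or receptor phosphatases with their ligands, in 13 pairs 1 gene was called and in 1 pair the rod gene was higher and the bipolar gene lower. The 7 became 11 on the log2(CPM + 1) scale and 4 in the fit on the 4 libraries alone. The pair of opposite sense was Jam3 and Jam2, junctional adhesion molecules that bind each other. Jam2 had 49.1 and 42.8 CPM in rod bipolars against 794 and 701 CPM in rods (-4.02 ± 0.15, adjusted p = 7.3e-11). Jam3 had 57.5 and 58.4 CPM in rod bipolars against 2.11 and 0.0252 CPM in rods (7.79 ± 1.33, adjusted p = 2.3e-04), a call lost in the fit on the 4 libraries alone.

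Both cells release glutamate from ribbons, and the complexins, which clamp and promote vesicle fusion, stood on opposite sides. Cplx4, a complexin of photoreceptor terminals, had 16.4 and 12.3 CPM in rod bipolars against 911 and 1092 CPM in rods (-6.13 ± 0.28, adjusted p = 4.9e-10). Cplx3, the complexin of rod bipolar and AII synapses, had 1242 and 1088 CPM in rod bipolars against 102 and 84.0 CPM in rods (3.65 ± 0.22, adjusted p = 5.9e-09). The groups did not overlap for either gene, in opposite directions.

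The calcium sensors divided likewise. Cabp4, which tunes the calcium channel of photoreceptor terminals, had 2.49 and 2.02 CPM in rod bipolars against 270.1 and 360.3 CPM in rods (-7.12 ± 0.76, adjusted p = 2.4e-06). Cabp5 had 1207 and 952 CPM in rod bipolars against 0.0703 and 0 CPM in rods, which was 2 reads (adjusted p = 4.9e-10). The ratio of its pooled reads was 37780 (95% exact interval 10458 to 311973).

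The pore of the channel showed no such swap. Cacna1f, the L-type pore subunit of photoreceptor ribbons, had 277 and 196 CPM in rod bipolars against 154 and 151 CPM in rods, a difference of 0.61 ± 0.18 (adjusted p = 0.013) that is below the size needed for a call. Cacna1d, another L-type pore subunit, had 49.2 and 43.0 CPM in rod bipolars and no reads in rods, at least 1048-fold higher (adjusted p = 3.8e-05). Among the alpha2delta subunits that carry channels to the membrane, Cacna2d3 had 2038 and 1961 CPM in rod bipolars and no reads in rods, at least 45458-fold higher (adjusted p = 6.2e-08). Cacna2d4, the subunit known from the rod terminal, was higher in rod bipolars too, at 1429 and 1342 CPM against 613 and 565 CPM in rods (1.23 ± 0.16, adjusted p = 1.8e-05). Cacnb2, a beta subunit of the photoreceptor channel, was lower, at 75.0 and 78.0 CPM in rod bipolars against 228 and 207 CPM in rods (adjusted p = 8.5e-04). Over 18 terminal calcium channels and sensors, 9 were higher and 2 lower in rod bipolars, with a median of 1.80.

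**Figure D3:**
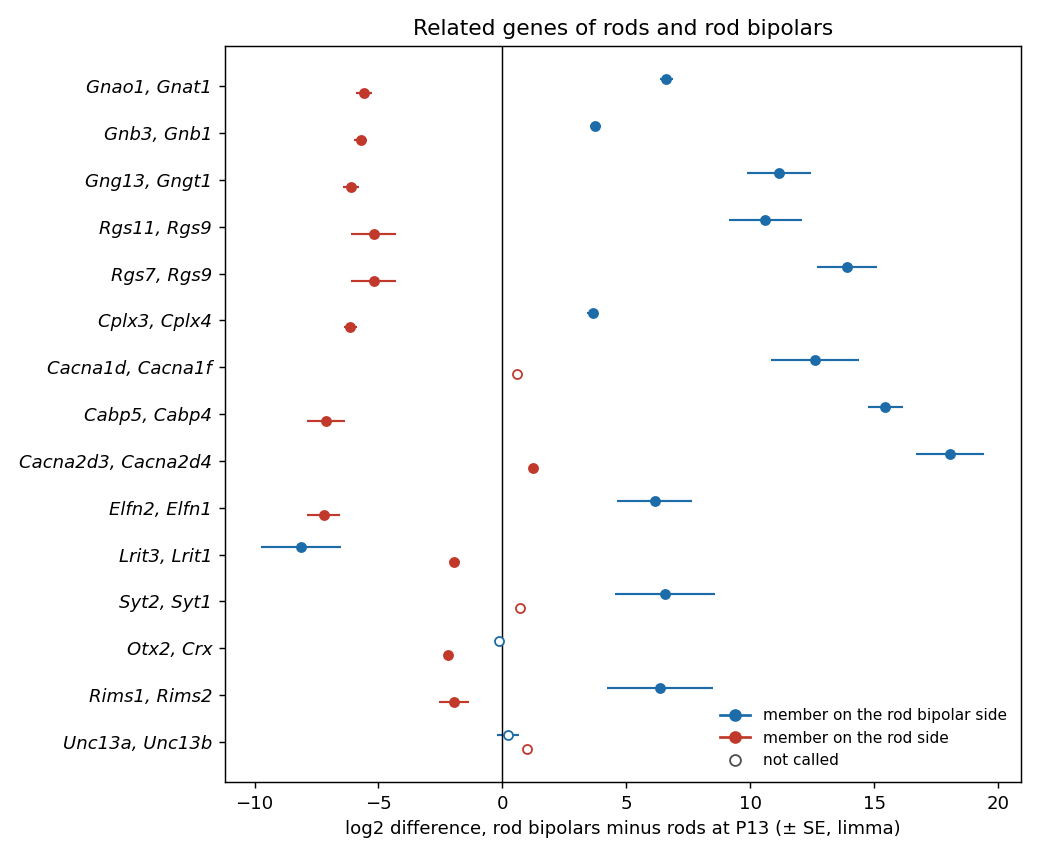
Log2 difference, rod bipolars minus rods at P13, with its SE from limma, for 15 pairs of related genes; blue marks the member placed on the rod bipolar side, red the member placed on the rod side, and open points were not called. In 9 pairs the 2 members moved apart, with the blue point to the right of 0 and the red point to the left; for members without reads in rods, such as Gng13, Cacna1d and Cacna2d3, the fitted value depends on the level assigned to no reads.

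Across 15 listed pairs of related genes, 9 had the rod member lower and the rod bipolar member higher in rod bipolars. These were the pairs of G protein subunits and regulators above, the complexins, Cabp4 and Cabp5, Elfn1 and Elfn2, and Rims2 and Rims1. Rgs9 stands in the pairs with both Rgs11 and Rgs7, so the pairs are not independent. The pairs, with a side given to each member, were chosen with earlier results of these data known. The count thus describes these pairs and is no test. The calls of Rims1 and Rims2, active zone scaffolds, were both lost in the fit on the 4 libraries alone, with array quality weights and without rod bipolar library 1, and leaving out another library also ended 1 of them. Without rod bipolar library 2 or rod library 2 the call of Rims1 was lost, and without rod library 1 that of Rims2. The call of Elfn2 was also lost in the fit on the 4 libraries alone. The pair Cacna2d4 and Cacna2d3 had both members higher and Lrit1 and Lrit3 had both lower.

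The ribbon and active zone list of 15 genes had 7 members higher (46.7%) and 2 lower (13.3%) in rod bipolars, with a median of 0.99. The shares of all genes tested were 22.5% and 15.6%. The count of 2 became 1 without rod bipolar library 1 or rod library 1. The count of 7 became 4 without rod bipolar library 1, 4 without rod bipolar library 2, and 3 either with array quality weights or in the fit on the 4 libraries alone. Bsn and Pclo, the scaffolds bassoon and piccolo, were each 2.20 higher on the log2 scale, with SEs of 0.29 and 0.27. Bsn had 104 and 112 CPM in rod bipolars against 30.3 and 18.2 CPM in rods, and Pclo had 184 and 230.2 CPM in rod bipolars against 37.1 and 54.3 CPM in rods. Unc119, a ribbon-associated lipid-binding protein, was lower, at 490.2 and 422 CPM in rod bipolars against 1391 and 1453 CPM in rods (-1.64 ± 0.17, adjusted p = 1.9e-06).

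Of 31 vesicle cycle genes, 13 were higher (41.9%) and 5 were lower (16.1%) in rod bipolars, with a median of 0.70. Of all genes tested 22.5% were higher and 15.6% lower, so the lower share stands near that of all genes. In the fit on the 4 libraries alone 8 were higher. Slc17a7, the vesicular glutamate transporter VGLUT1, was lower, at 128 and 115 CPM in rod bipolars against 770.1 and 710.3 CPM in rods (-2.61 ± 0.16, adjusted p = 5.9e-09). Sv2a, a vesicle glycoprotein, was higher, at 137 and 162 CPM in rod bipolars against 38.3 and 33.8 CPM in rods (2.05 ± 0.31, adjusted p = 8.0e-05). Nsf, which recycles SNARE proteins after fusion, was higher, at 2172 and 1859 CPM in rod bipolars against 858 and 696 CPM in rods (1.38 ± 0.18, adjusted p = 2.4e-05).

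Genes for receiving input were called higher in rod bipolars at larger shares than all genes tested, 22.5% of which were higher and 15.6% lower. The list medians here depend on the value given to libraries without reads. On the log2(CPM + 1) scale they were 2.61 for ionotropic glutamate receptors and 2.20 for GABA and glycine receptors. For the voltage-gated potassium, HCN and sodium channels below the median on that scale was 1.48. By limma none of 18 ionotropic glutamate receptor genes tested was lower, while 1 was at an unadjusted p under 0.05 and 1 with voom. Higher in rod bipolars were 14 (77.8%), with a median of 5.97. That count became 9 without rod bipolar library 1, 8 without rod bipolar library 2, 8 without rod library 2, 6 in the fit on the 4 libraries alone and 5 with array quality weights, and without rod bipolar library 1 or rod library 1 a member was called lower. Gria4, an AMPA receptor subunit, had 56.6 and 42.9 CPM in rod bipolars and no reads in rods, at least 1132-fold higher (adjusted p = 1.1e-04). Grid1, a delta receptor that joins synapses through cerebellins, had 59.8 and 84.9 CPM in rod bipolars and no reads in rods, at least 1645-fold higher (adjusted p = 1.6e-04).

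None of 21 GABA and glycine receptor genes was lower, also at an unadjusted p under 0.05 and with voom (0 each). Higher were 12 (57.1%, against 22.5% of all genes tested), with a median of 4.66. The count became 7 without rod bipolar library 2 or with array quality weights, and 4 in the fit on the 4 libraries alone. Gabrr1, the slow GABA-C subunit of rod bipolar terminals, had 429 and 505 CPM in rod bipolars against 0.949 and 0 CPM in rods (12.45 ± 2.10, adjusted p = 2.1e-04), a call lost in the fit on the 4 libraries alone. Gabrr1 separated the groups, and the summed level of amacrine markers in both is given above.

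Among 23 voltage-gated potassium, HCN and sodium channel genes, 10 were higher and 3 lower, with a median of 3.83. The higher count became 6 without rod bipolar library 2, without rod library 2 or with array quality weights, and 4 in the fit on the 4 libraries alone. Kcnv2, the silent subunit of the photoreceptor potassium current, had 11.9 and 6.61 CPM in rod bipolars against 1041 and 793 CPM in rods (-6.67 ± 0.54, adjusted p = 1.2e-07). Kcnma1, the BK channel, was high on the other side, at 513 and 716 CPM in rod bipolars against 2.50 and 1.84 CPM in rods (8.14 ± 0.68, adjusted p = 1.7e-07).

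Gjd2, the connexin 36 of rod and cone gap junctions and of cone bipolars, had 15.2 and 7.67 CPM in rod bipolars against 110.0 and 117 CPM in rods (-3.40 ± 0.27, adjusted p = 8.5e-08). Panx1, a pannexin channel, had 15.3 and 15.5 CPM in rod bipolars and no reads in rods, at least 350.0-fold higher (adjusted p = 1.2e-07).

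**Figure D4:**
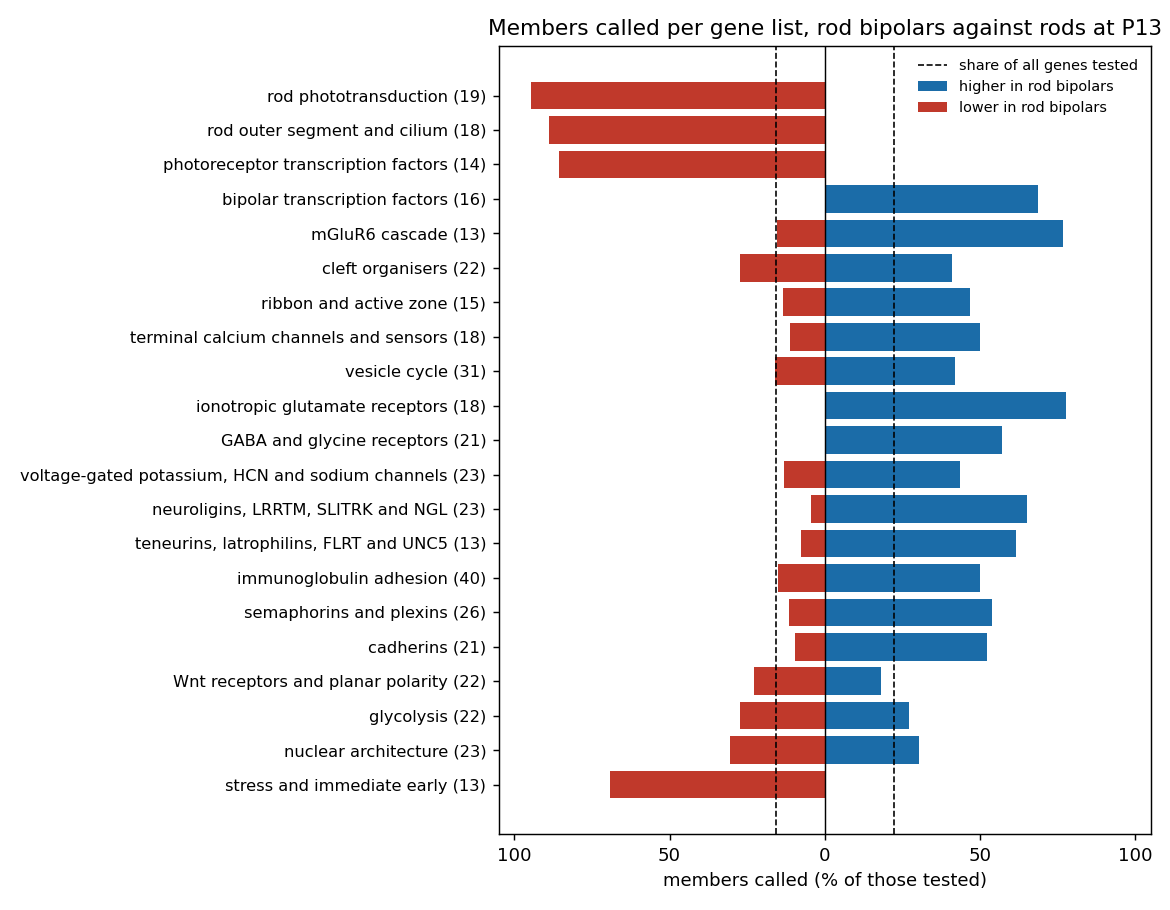
Share of tested members called higher (blue, right) and lower (red, left) in rod bipolars than in rods for 21 gene lists, with the number tested in brackets; dashed lines give the shares over all genes tested, 22.5% higher and 15.6% lower. The phototransduction, outer segment, photoreceptor factor and stress lists extend to the left, and the receptor, bipolar factor and mGluR6 cascade lists to the right.

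Adhesion genes of several families were also higher on the rod bipolar side. Their list medians, too, depend on the value given to libraries without reads. On the log2(CPM + 1) scale the median was 2.61 for neuroligins, LRRTMs, SLITRKs and NGLs. On that scale it was 1.71 for teneurins and the genes listed with them, and 1.23 for immunoglobulin adhesion genes. It was 1.48 for cadherins and 1.74 for semaphorins and plexins. Of 23 neuroligins, LRRTMs, SLITRKs and NGLs, 15 were higher and 1 was lower, with a median of 6.31, and the lower call was lost without rod library 1 and with either other scaling. Lrrtm4, a neurexin ligand known from rod bipolar axon terminals, had 216 and 378 CPM in rod bipolars against 0.0351 and 0.0755 CPM in rods (12.24 ± 2.18, adjusted p = 3.3e-04), where it had few reads. Il1rap, a partner of receptor phosphatases at synapses, had 325 and 351 CPM in rod bipolars and no reads in rods, at least 7681-fold higher (adjusted p = 3.3e-09).

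Of 13 teneurins, latrophilins, FLRT and UNC5 proteins, 8 were higher and 1 was lower, with a median of 2.54. The count of 8 became 4 without rod bipolar library 1, without rod bipolar library 2 or with array quality weights, and 5 without rod library 2 or in the fit on the 4 libraries alone, and the lower call was lost without rod bipolar library 1. Tenm4, a teneurin, had 184 and 229 CPM in rod bipolars and no reads in rods, at least 4695-fold higher (adjusted p = 1.6e-13). Its latrophilin partner Adgrl1 was higher on the same side, at 226 and 165 CPM in rod bipolars against 22.2 and 17.5 CPM in rods (3.29 ± 0.21, adjusted p = 1.0e-08).

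Of 40 immunoglobulin adhesion genes, 20 were higher and 6 lower in rod bipolars, with a median of 2.11, and 13 were higher with array quality weights and 12 in the fit on the 4 libraries alone. Igsf11 was lower, at 5.79 and 4.79 CPM in rod bipolars against 97.1 and 119 CPM in rods (-4.35 ± 0.27, adjusted p = 6.9e-09). Cadm2, a SynCAM, was lower, at 75.8 and 101 CPM in rod bipolars against 524 and 485 CPM in rods (-2.53 ± 0.16, adjusted p = 6.7e-09). Sdk1, a sidekick protein that guides lamina choice in the inner retina, was higher, at 84.1 and 128 CPM in rod bipolars against 0.105 and 0.0252 CPM in rods (10.74 ± 1.16, adjusted p = 2.8e-06).

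Of 21 cadherins, 11 were higher and 2 were lower, with a median of 5.35, or 4.74 at bounds, and 6 were higher with array quality weights and 3 in the fit on the 4 libraries alone. The lower members were the photoreceptor cadherins Cdhr1 and Pcdh15. Cdhr1, which sits at the base of the outer segment, averaged 104 ± 12.7 CPM in rod bipolars and 2783 ± 3.48 CPM in rods (SD, n = 2 each), with no overlap (-4.74 ± 0.16, adjusted p = 2.9e-11). Of 26 semaphorins and plexins, 14 were higher (53.8%) and 3 lower (11.5%), with a median of 4.60. The shares of all genes tested were 22.5% and 15.6%. Plxna2, a semaphorin receptor, was lower, at 17.3 and 7.72 CPM in rod bipolars against 519 and 233 CPM in rods (-4.91 ± 0.43, adjusted p = 3.0e-07), and Sema5b had 87.0 and 96.7 CPM in rod bipolars and no reads in rods.

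The Wnt5 ligands stood on the rod bipolar side and their receptor Ryk on the rod side. Wnt5b had 33.1 and 35.4 CPM in rod bipolars and no reads in rods, at least 779-fold higher (adjusted p = 1.2e-05). Wnt5a had 140 and 146 CPM in rod bipolars against 16.3 and 0.0503 CPM in rods (7.20 ± 2.22, adjusted p = 0.016). The rod libraries differed widely for Wnt5a, and its call was lost without rod bipolar library 1, rod bipolar library 2 or rod library 2 and in the fit on the 4 libraries alone. Ryk, a tyrosine-kinase-like Wnt receptor, had 18.4 and 33.9 CPM in rod bipolars against 95.3 and 107 CPM in rods (-2.01 ± 0.28, adjusted p = 3.1e-05), with no overlap.

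Of the 22 Wnt receptors and planar polarity genes tested, 4 were higher and 5 lower in rod bipolars, shares of 18.2% and 22.7% that stand near those of all genes. In the fit on the 4 libraries alone 2 were higher and 3 lower. The prickle proteins of the planar polarity core stood on opposite sides. Prickle2 had 207 and 232 CPM in rod bipolars against 0 and 0.101 CPM in rods (12.93 ± 1.28, adjusted p = 1.0e-06). Prickle1 had 5.41 and 13.3 CPM in rod bipolars against 75.7 and 79.0 CPM in rods (-3.19 ± 0.43, adjusted p = 2.6e-05).

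Of the 19 phototransduction genes, 18 were lower in rod bipolars (94.7%, against 15.6% of all genes tested), with a median of -5.78. The other, Guca1a, a guanylate cyclase activator, had 1.07 and 0.555 CPM in rod bipolars against 24.2 and 16.2 CPM in rods and did not pass (adjusted p = 0.065), though it did on the log2(CPM + 1) scale, with voom and in the fit on the 4 libraries alone. Of 18 outer segment and cilium genes, 16 were lower (88.9%), with a median of -5.20. None was higher, also at an unadjusted p under 0.05 and with voom (0 each). Of 22 glycolysis genes, 6 were higher and 6 lower, with a median of -0.17 that turned to 0.06 without rod library 2, 0.21 with plain totals and 0.14 without mitochondrial transcripts, and 3 were higher without rod library 1 or with array quality weights. In the fit on the 4 libraries alone 3 were higher and 2 lower. By the main fit 27.3% of the glycolysis genes were higher, near the 22.5% of all genes tested, and 27.3% were lower, against 15.6%. Ldha, the lactate dehydrogenase of aerobic glycolysis, had 305 and 293 CPM in rod bipolars against 2469 and 4012 CPM in rods (-3.40 ± 0.21, adjusted p = 7.9e-09). Hk2, the hexokinase of photoreceptors, had 3.72 and 3.33 CPM in rod bipolars against 48.6 and 47.5 CPM in rods (-3.77 ± 0.34, adjusted p = 4.3e-07). Pfkp, a phosphofructokinase, was on the other side, at 1158 and 990 CPM in rod bipolars against 135 and 151 CPM in rods (2.91 ± 0.23, adjusted p = 9.9e-08).

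Of 23 genes of nuclear architecture, 7 were higher and 7 lower, 30.4% each, against 22.5% and 15.6% of all genes tested. The list median of 0.15 turned to -0.04 without rod library 1 and -0.05 without rod library 2. With either other scaling 4 were lower. In the fit on the 4 libraries alone 2 were higher and 3 lower. Hmgn1, a nucleosome-binding protein, had 1349 and 1286 CPM in rod bipolars against 7410 and 9496 CPM in rods (-2.67 ± 0.22, adjusted p = 1.1e-07). Its relative Hmgn3 had 705 and 592 CPM in rod bipolars against 64.8 and 77.5 CPM in rods (3.19 ± 0.23, adjusted p = 3.9e-08). Suv39h2, a methyltransferase of heterochromatin, was lower, at 5.37 and 4.69 CPM in rod bipolars against 96.2 and 78.4 CPM in rods (-4.11 ± 0.47, adjusted p = 5.3e-06).

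Set against cone bipolars of the same age, rod bipolars differed at 628 of the 13405 genes, 4.68%, with 203 higher (1.51%) and 425 lower (3.17%). Of the 9 rod bipolar markers 4 were higher in rod bipolars by that comparison, while 5 had an unadjusted p under 0.05 and voom on recovered reads called 8. Prkca had 5044 and 6298 CPM in rod bipolars against 304 and 188 CPM in cone bipolars (4.56 ± 0.68, adjusted p = 7.0e-04), and Sebox, a homeobox gene, had 362 and 348 CPM in rod bipolars against 12.5 and 14.4 CPM in cone bipolars (4.73 ± 0.53, adjusted p = 5.4e-05). No gene of the mGluR6 cascade was called between them by limma, while 2 had an unadjusted p under 0.05 and voom called 5. Grm6 had 3532 and 3209 CPM in rod bipolars against 1562 and 1579 CPM in cone bipolars (1.10 ± 0.83, adjusted p = 0.58), and it was among those called with voom. Counts moved with the libraries, to 361 without cone bipolar library 1, 297 without cone bipolar library 2 and 419 without rod bipolar library 1, and to 1251 on the log2(CPM + 1) scale.

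Several genes that separated rod bipolars from rods also separated them from cone bipolars. Il1rap had 325 and 351 CPM in rod bipolars against 5.92 and 5.86 CPM in cone bipolars (5.84 ± 0.89, adjusted p = 8.1e-04). Gjd2 had 15.2 and 7.67 CPM in rod bipolars against 359 and 335 CPM in cone bipolars (-5.01 ± 0.27, adjusted p = 2.4e-08). Wnt5b had 33.1 and 35.4 CPM in rod bipolars against 1.87 and 0.221 CPM in cone bipolars (5.71 ± 1.52, adjusted p = 0.037). The call of Wnt5b was lost without rod bipolar library 1, rod bipolar library 2 or cone bipolar library 2 and in the fit on these 2 groups alone.

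The difference between rod bipolars and rods was then set against that between cone bipolars and cones, as an interaction in the same fit. It was called for 1768 genes, 13.2%, with 1009 higher in the rod pair (7.53%) and 759 lower (5.66%). Without rod library 1 the count was 2988, without cone bipolar library 1 it was 1176, and without cone bipolar library 2 it was 1106. With array quality weights it was 1073, and in the fit on the 8 libraries of these groups 926.

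The complexin swap differed between the pairs. Cplx3 was 3.65 higher in rod bipolars than in rods on the log2 scale and 0.32 higher in cone bipolars than in cones, an interaction of 3.33 ± 0.31 (adjusted p = 4.3e-06). Cones held 914 and 816 CPM of Cplx3, near the 1142 and 1020 CPM of cone bipolars, whereas rods held 102 and 84.0 CPM. Cplx4 differed by -6.13 in the rod pair and -1.68 in the cone pair, an interaction of -4.45 ± 0.40 (adjusted p = 3.2e-06). Cabp5 had an interaction of 14.84 (adjusted p = 1.8e-07), with 452 and 417 CPM in cone bipolars and 304 and 262 CPM in cones.

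**Figure D5:**
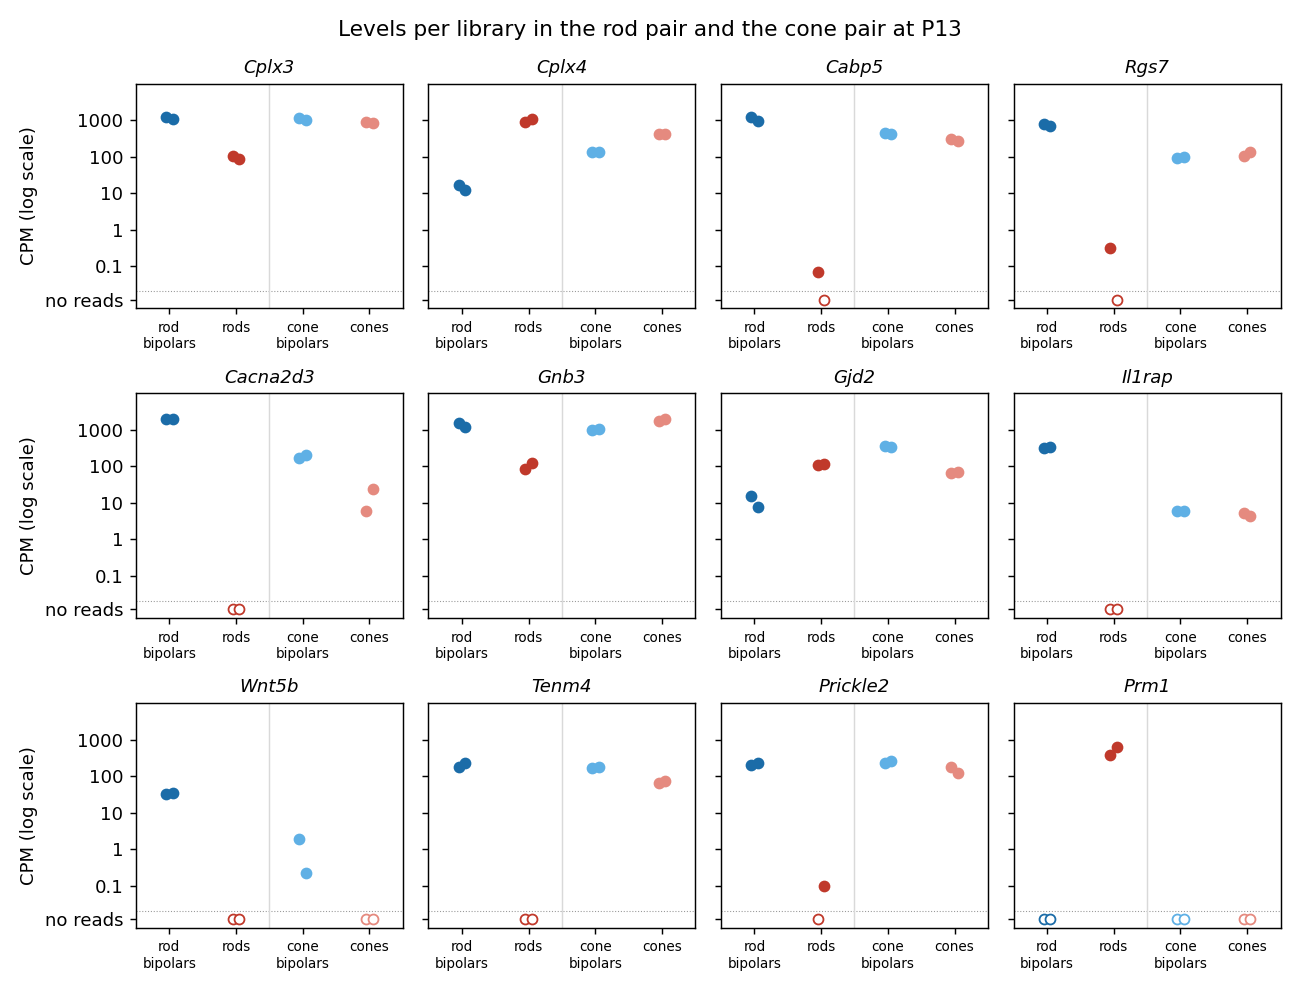
CPM per library on a log scale for 12 genes in rod bipolars, rods, cone bipolars and cones at P13, 2 libraries each; open points mark libraries with no reads. Cplx3, Cabp5, Rgs7 and Prickle2 are low or without reads in rods and present in the other 3 groups, Gjd2 is lowest in rod bipolars, and Prm1 had reads in rods and none in the other 3 groups.

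Gnb3, the beta subunit that ON bipolars share with cones, was 3.75 higher in rod bipolars than in rods and differed by -0.86 between cone bipolars and cones, an interaction of 4.61 ± 0.32 (adjusted p = 1.8e-07). Rgs7, Cacna2d3, Tenm4, Prickle2 and Il1rap had positive interactions of 14.19, 14.10, 13.45, 12.18 and 15.21, and each had few or no reads in rods. Dmd, Gjd2, Ldha and Plxna2 had negative interactions of -2.40, -5.75, -2.91 and -4.93. For Gjd2 the sign of the pair differed, with -3.40 in the rod pair and 2.35 in the cone pair. Among bipolar genes, Grm6 was without reads in rods, while cones held 20.2 and 23.1 CPM of it. The cone bipolar markers summed to 40.6 and 105.2 CPM in cones and to 44.9 and 16.8 CPM in rods, and the rod bipolar markers to 395 and 567 CPM in cones and to 353 and 399 CPM in rods. The part of these reads in the interactions was not tested.

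At P30 bipolars were compared with rods, with libraries that the P13 comparison does not use. Those bipolars are the mixed class and not sorted rod bipolars. Of the genes tested 5049 were called, 37.7%, with 2947 higher in bipolars (22%) and 2102 lower (15.7%). The overlaps below are to be read against these shares of all genes. Of the 3010 genes higher in rod bipolars at P13, 1707 were also higher in bipolars at P30, which is 56.7% of the first list and 57.9% of the second. Of the 2096 lower genes, 1071 were lower at P30 as well, 51.1% of the first list and 51.0% of the second. The called direction was opposite at P30 for 49 of the higher and 65 of the lower genes. Among the 65 were 9 listed members, such as Car2 of the Müller glia list and Jun of the stress list. Of the 14 Müller glia markers 10 were higher in bipolars at P30, as were all 4 red blood cell genes tested, against 22% of all genes. No member of either list was lower. Of the ganglion cell and pigment epithelium markers none was called at P30. The part of other RNAs in the P30 calls was not tested. Fzd5, a Wnt receptor placed on the rod side of the pairs, was 2.02 lower at P13, as a log2 difference of -2.02 ± 0.79 (adjusted p = 0.048), and 2.62 ± 0.79 higher in bipolars at P30 (adjusted p = 0.014). Its P13 call was lost without rod bipolar library 1, without rod library 2, in the fit on the 4 libraries alone, with array quality weights, without an intensity trend, with voom and with either other scaling. Its P30 call was lost without bipolar library 2 and without either rod library.

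Elfn1 and Egflam were lower in bipolars than in rods at P30 too. Elfn1 had 0.638 and 2.68 CPM in P30 bipolars against 176 and 135 CPM in P30 rods (-6.87 ± 0.67, adjusted p = 9.4e-07). Egflam had 6.11 and 5.55 CPM in P30 bipolars against 293 and 325 CPM in P30 rods (-5.73 ± 0.39, adjusted p = 1.9e-08). In rods Elfn1 had 145 and 156 CPM at P7, 128 and 155 CPM at P13 and 176 and 135 CPM at P30, ranges that overlap between ages.

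The complexins of rods stood further apart in the libraries of later ages, though no difference between ages was tested. In rods Cplx3 had 251 and 284 CPM at P7, 102 and 84.0 CPM at P13 and 17.9 and 33.7 CPM at P30. Cplx4 had 257 and 184 CPM in rods at P7, 911 and 1092 CPM at P13 and 1014 and 1127 CPM at P30. Cplx3 thus stood lower at each later age with no overlap, and Cplx4 higher at P13 and P30 than at P7. At P30 Cplx3 was 5.78 ± 0.22 higher in bipolars than in rods (adjusted p = 2.0e-10), and Cplx4 was 2.54 lower, as a log2 difference of -2.54 ± 0.28 (adjusted p = 4.0e-06).

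Unc13b, a vesicle priming factor, was lower in bipolars than in rods at P30 but not in rod bipolars at P13. At P13 it had 887 and 1111 CPM in rod bipolars against 528 and 473 CPM in rods, a difference of 0.99 ± 0.15 (adjusted p = 7.2e-05) that lies just under the size needed for a call and passed it without rod bipolar library 1, without rod library 1 and with either other scaling. At P30 it had 335 and 306 CPM in bipolars against 821 and 699 CPM in rods (-1.24 ± 0.15, adjusted p = 8.7e-06). Against cone bipolars, which held 325 and 299 CPM at P13, rod bipolars were 1.67 ± 0.15 higher (adjusted p = 5.0e-06).

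Cacna1f, not called at P13, was lower in P30 bipolars, at 114 and 121 CPM against 389 and 308 CPM in P30 rods (-1.56 ± 0.18, adjusted p = 6.0e-06). Gjd2 had 235 and 182 CPM in P30 bipolars against 101 and 122 CPM in P30 rods and was not called (0.90 ± 0.27, adjusted p = 0.013), though it was without bipolar library 2, without rod library 2 and with either other scaling. Whether these differences changed between the comparisons was not tested, and the mixed class holds cone bipolars, which at P13 had more Gjd2 than rod bipolars. Prm1 had no reads in bipolars at any age, and in rods it had 242 and 259 CPM at P7, 387 and 618 CPM at P13 and 635 and 755 CPM at P30.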

How the data were processed

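Cells sorted from the mouse retina gave RNA that was amplified in a linear fashion before library preparation, per the labels' protocols. The submitters' processing notes name STAR, edgeR and the mouse build GRCm38, also called mm10. Versions, read counter, annotation and any use of strand were not in the sources used here, so reads of overlapping genes may be shared. The deposited values are log2 CPM for 13812 genes in 22 libraries, with no reads at -7.10. The authors' log2 scale was undone to give CPM and whole reads, to within 0.01 of a read.

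limma 3.58.1 in R 4.3.3 was fitted to the deposited log2 values of all 22 libraries, with a coefficient per group and an intensity trend. Genes were tested if log2 CPM was at least 0 in 2 libraries of a group. P-values were adjusted by Benjamini-Hochberg over 13405 genes, and calls needed an adjusted p under 0.05 and a log2 difference of at least 1. The model was tested on simulated data in which only genes of at least 3 on the log2 scale in rods were changed. That test does not cover genes without reads in rods. Floors are 3 reads over a group, a bound against a group without reads is taken at that floor, and exact (Clopper-Pearson) intervals are at 95%. Floors and intervals cover counting error only. Positions come from GENCODE M21 and promoters from RefSeq.

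Genes named by size are the 10 largest rises and falls without overlap and at least 3 on the log2 scale in the higher group. The members, the 35 lists and the pairs were chosen with earlier results of these data known. Alternatives were another filter, pseudocount or scaling, voom, array quality weights, no trend, fewer groups, the replicate number as a block and leaving out each library.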

Additional observations from a re-analysis of the deposited data

Results flagged for a closer look

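The difference between rod bipolars and rods departed from that between cone bipolars and cones, by the interaction in the same fit, for 1768 genes. Among the genes named above, the interaction was positive, so that rod bipolars stood higher against rods than cone bipolars against cones, for Il1rap (15.21), Cabp5 (14.84), Rgs7 (14.19), Cacna2d3 (14.10), Tenm4 (13.45), Prickle2 (12.18), Gnb3 (4.61) and Cplx3 (3.33), all on the log2 scale. It was negative for Prm1 (-16.04), Gjd2 (-5.75), Plxna2 (-4.93), Cplx4 (-4.45), Ldha (-2.91) and Dmd (-2.40). The sizes for Il1rap, Cabp5, Rgs7, Cacna2d3, Tenm4, Prickle2 and Prm1 depend on the value given to libraries without reads. For Prm1 the reads were in rods, and rod bipolars, cone bipolars and cones had none.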

How the results depend on the processing

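For rod bipolars minus rods the 5106 calls became 3256 with array quality weights and 2404 in the fit on the 4 libraries alone. With a library left out, the median log2 difference over all genes ran from 0.10 to 0.24. For rod bipolars minus cone bipolars the 628 calls became 1251 on the log2(CPM + 1) scale and ran from 297 to 643 with a library left out. For the rod pair minus the cone pair the 1768 calls became 1073 with array quality weights and 926 in the fit on the compared groups, and ran from 1106 to 2988. For bipolars minus rods at P30 the 5049 calls ran from 3632 to 4248. The log2 difference of Otx2 turned to 0.24 with plain read totals and 0.17 without mitochondrial transcripts. With the replicate number as a replicate block the calls were 5273, 616, 1859 and 4962 in the same order. Same-numbered libraries of rod bipolars and rods deviated with a correlation of -0.0206, and those of P30 bipolars and rods with -0.0205. For rod bipolars and cone bipolars the correlation was 0.1446. The numbers were not taken to pair libraries in any comparison, and whether the last value reflects a shared replicate effect was not tested. Unless stated, the cause of a change was not tested. Depth limits the genes without reads to bounds.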

Other observations

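Markers of other cell types were counted between rod bipolars and rods, where 22.5% of all genes tested were higher and 15.6% lower. Of 14 cone bipolar markers, 9 were higher in rod bipolars, where the list summed to 474 and 471 CPM against 44.9 and 16.8 CPM in rods, and 4 were higher with array quality weights. Of 13 cone markers, 5 were higher and 2 lower, and 4 were lower without rod library 1. Gnat2, the cone transducin alpha subunit, had 23.7 and 25.7 CPM in rod bipolars against 0.0703 and 0.327 CPM in rods. Of 7 horizontal cell markers, 3 were higher, and 1 without rod bipolar library 1 or with array quality weights. Prox1, which rod bipolars are also known to express, had 1585 and 1436 CPM in rod bipolars against 1.90 and 0.302 CPM in rods. Of 14 Müller glia markers, 3 were higher (21.4%) and 2 lower (14.3%), shares near those of all genes. Leaving out a library gave 1 higher (without rod library 2) to 5 higher (without rod library 1), and 1 lower without rod bipolar library 1. Of 10 ganglion cell markers and 10 microglia markers 2 each were lower (20.0%). For ganglion cell markers 1 was lower without rod bipolar library 1, rod bipolar library 2 or rod library 2, and 2 were higher without rod library 1. For microglia markers none was lower without rod bipolar library 1, and 1 was lower without rod bipolar library 2 or rod library 1. The 4 red blood cell genes summed to 0.0971 and 6.31 CPM in rod bipolars against 5.17 and 0.151 CPM in rods, and the 7 pigment epithelium markers to 71.1 and 68.9 CPM in rod bipolars against 71.3 and 61.1 CPM in rods.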
